A study of Mus musculus with 4 samples.

Results

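The immediate early genes examined here were 10 genes whose transcripts are known to accumulate within minutes of a stimulus: Fos, Fosb, Jun, Junb, Egr1, Ier2, Atf3, Btg2, Dusp1 and Zfp36. They were taken by symbol from the deposited table of normalized expression, in which all 10 were found among 22458 symbols, and they were read in all 4 libraries as a check of tissue handling. The libraries came from jejunal epithelium of adult mice on a mixed 129xC57/Bl6xSvJ background, and every mouse, controls included, had received 1 mg of tamoxifen on 5 consecutive days to switch on Cre. There were 2 libraries labelled Hnf4a;Cdx2 double knockout and 2 from Cre- controls, called independent biological replicates in the design text. The labels name neither the Cre line nor the deleted exons. The epithelium was released in 5 mM EDTA for 45 minutes at 4 °C before it was frozen, a step that lies between the living tissue and every value given here.

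Immediate early genes are transcribed without new protein synthesis, through factors that are already present in the cell, such as SRF with its ternary complex partners and CREB, once kinase cascades activate them. Their messenger RNAs carry signals for rapid decay, so that their level reflects the recent history of a cell. Fos, Fosb, Jun, Junb and Atf3 encode basic leucine zipper proteins that pair to form the AP-1 family of transcription factors, and Egr1 encodes a zinc finger transcription factor. Dusp1 (a phosphatase that inactivates MAP kinases), Zfp36 (tristetraprolin, which directs AU-rich messenger RNAs to decay) and Btg2 (an antiproliferative protein that recruits the CCR4-NOT deadenylase) are known as brakes on the response. Several of these genes, Fos, Jun and Egr1 among them, are also known to be induced by the dissociation of tissue.

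Of the 10 genes, Btg2 fell in the libraries labelled double knockout, to 15.6 ± 1.67 FPKM against 38.3 ± 5.12 FPKM in controls (SD, n = 2 each), and no other member was called. Egr1 was higher in both labelled double knockout libraries than in both controls, at 9.73 ± 4.25 FPKM against 2.41 ± 1.60 FPKM (SD, n = 2 each), without passing the test. Fos had the widest spread inside a group: it stood at 31.5 and 138 FPKM in the 2 libraries labelled double knockout. FPKM divide fragments by transcript length and by the size of the library, so levels can be set beside each other between genes. A gene was called at a Benjamini-Hochberg adjusted p under 0.05 in limma on log2(FPKM + 1), over the 10883 genes whose mean reached 1 FPKM. By that rule 1 of 10 members was lower, where 5.8% of all genes tested were, and 0 of 10 were higher, where 3.77% were; in either direction it was 9.57%. At an unadjusted p under 0.05 limma gave 1 member higher (Egr1) and 1 lower (Btg2), where 13.3% of all genes tested were higher and 15% lower. All 10 members passed the filter on low values, Fosb only through labelled double knockout 2.

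The deposited values held whole-read steps, from which the relative depth followed: the libraries labelled double knockout 1 and 2 had 65.2% and 49.8% of the depth of control 1, and control 2 had 68.5%. The members' values rested on at least 39 to 3441 reads per library. As a check of the labels, Hnf4a was lower in the libraries labelled double knockout, at 31.6 and 48.2 FPKM against 156 and 202 FPKM in controls (limma, adjusted p = 0.0147), but Cdx2 was higher, at 159.8 and 161 FPKM against 70.9 and 65.2 FPKM (limma, adjusted p = 0.0150). Cdx2 goes against the label, so every direction below rests on the labels. The limma call of Hnf4a was lost without control 1 or control 2 (adjusted p up to 0.0885), and that of Cdx2 was lost whichever of the 4 libraries was left out (adjusted p from 0.0503 to 0.0887). All 8 epithelial markers were present, and their summed level was 9198 and 9829 FPKM in the labelled double knockout libraries against 7358 and 8971 FPKM in controls; Epcam and Vil1 were called lower and Krt19 higher. In bulk tissue fewer cells of a type and less RNA per cell cannot be told apart.

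**Figure D1:**
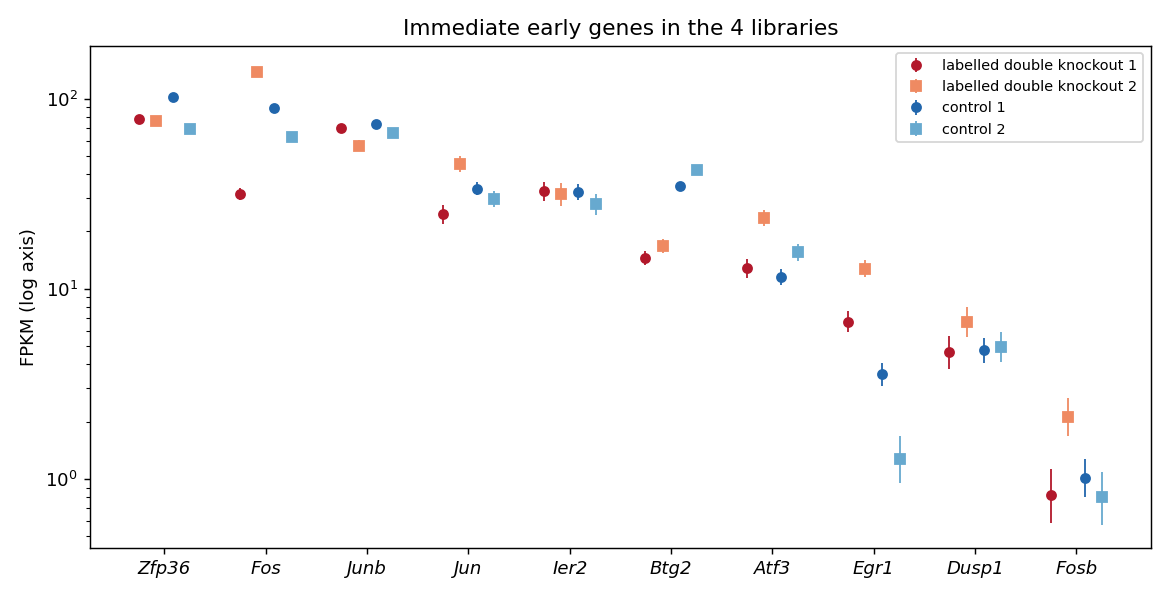
FPKM of the 10 immediate early genes on a log axis in each of the 4 libraries, ordered by mean level. Bars are 95% Poisson intervals from the smallest whole number of reads that gives the values. Btg2 is low in both labelled double knockout libraries, and Fos spans 31.5 to 138 FPKM within that group.

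Promoter sequence is shown for Fos, the member with the widest spread between the libraries labelled double knockout, for Dusp1, and for Btg2, the member that fell. These are the 250 bases before the RefSeq start of each gene on GRCm38.p6, read along the gene, with the cyclic AMP response element TGACGTCA and its core TGACG, on either strand, in capitals. CREB and ATF proteins are known to bind this element. Fos is at chr12:85473640-85473889 on the plus strand, Dusp1 at chr17:26508473-26508722 on the minus strand and Btg2 at chr1:134079156-134079405 on the minus strand.
Fos: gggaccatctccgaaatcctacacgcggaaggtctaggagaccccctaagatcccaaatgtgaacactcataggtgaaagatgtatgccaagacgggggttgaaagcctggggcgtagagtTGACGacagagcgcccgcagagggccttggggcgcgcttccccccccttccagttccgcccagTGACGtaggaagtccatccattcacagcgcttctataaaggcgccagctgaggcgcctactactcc
Dusp1: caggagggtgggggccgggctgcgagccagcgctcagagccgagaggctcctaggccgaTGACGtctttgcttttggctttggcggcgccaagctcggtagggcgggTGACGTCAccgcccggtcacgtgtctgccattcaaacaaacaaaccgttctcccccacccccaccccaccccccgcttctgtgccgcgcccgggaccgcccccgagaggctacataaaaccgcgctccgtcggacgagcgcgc
Btg2: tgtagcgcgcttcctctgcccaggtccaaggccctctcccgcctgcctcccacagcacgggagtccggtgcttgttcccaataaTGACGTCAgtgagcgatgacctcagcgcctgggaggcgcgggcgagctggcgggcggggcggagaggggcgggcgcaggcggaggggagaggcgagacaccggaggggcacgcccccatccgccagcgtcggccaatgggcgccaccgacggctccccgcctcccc

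Both strands of these windows were searched in the 8 members that had an entry, that is all but Egr1 and Ier2. The full element TGACGTCA was found in 2 of the 8, Dusp1 from base 143 to base 136 before the start and Btg2 from base 166 to base 159, and in 1.55% of all 32851 promoter windows. The core TGACG, which the full element contains, was found in 6 of the 8 (Fos, Fosb, Junb, Atf3, Dusp1 and Btg2) and in 17.8% of all windows. In Fos it lay at bases 66 to 62 and 129 to 125 before the start, and Fos was also the member with the TATA box TATAAA, found in 12.4% of all windows. The EGR site, searched as GCGGGGGCG and GCGTGGGCG, was found in Fosb and Zfp36 and in 3.06% of all windows. A CArG box, the core of the serum response element, was found in Zfp36 and in 1.47% of all windows. The AP-1 site, searched only as the exact letters TGACTCA, was found in none of the 8 members and in 4.46% of all windows. Bases outside the windows, and variant letters of these sites, were not searched. A member without a match, such as Fos for the CArG box or Jun for the AP-1 site, may therefore still carry such a site. A match is a description of the letters in the window, and Dusp1 and Btg2, which share the full element, differed in their values below.

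Among the AP-1 genes, Fos (chromosome 12, 86814851 to 86818219, mm9) had 31.5 and 138 FPKM in the labelled double knockout libraries, against 89.4 and 62.8 FPKM in controls. The groups overlapped, with both controls between the 2 labelled double knockout libraries. The group means were 84.8 ± 75.4 and 76.1 ± 18.8 FPKM (SD, n = 2 each), while the log2 fold change was -0.17 ± 0.70 (SE, limma, adjusted p = 0.897), so the mean of FPKM and the mean of log2 values differed in sign. The 95% interval of that log2 fold change ran from -1.97 to 1.62. Counting error did not cover the spread: the 95% Poisson intervals were 29.4 to 33.8 FPKM and 132.9 to 143.5 FPKM in the labelled double knockout libraries, from at least 791 and 2648 reads. The direction turned with the library left out, to 0.87 without labelled double knockout 1 and 0.08 without control 1, and was -1.22 without labelled double knockout 2.

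Fosb (chromosome 7, 19888045 to 19895394), a close relative of Fos, was the scarcest member, with 0.822 and 2.12 FPKM in the labelled double knockout libraries against 1.02 and 0.801 FPKM in controls. Again labelled double knockout 2 was the highest library and the groups overlapped (log2 fold change 0.32 ± 0.32, SE; limma, adjusted p = 0.556). These values rested on at least 39 and 77 reads in the labelled double knockout libraries and 74 and 40 in controls. Fold changes on the log2(FPKM + 1) scale understate the change of a gene at this level. Jun (chromosome 4, 94715727 to 94718913), the main partner of Fos, had 24.6 and 45.2 FPKM in the labelled double knockout libraries against 33.6 and 29.6 FPKM in controls. Labelled double knockout 1 was the lowest library and labelled double knockout 2 the highest, as for Fos (log2 fold change 0.08 ± 0.31, SE; limma, adjusted p = 0.892). Without labelled double knockout 2 the value was -0.35.

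Junb (chromosome 8, 87500808 to 87502647), a Jun relative that can restrain Jun activity, did not follow Fos and Jun. It had 70.1 and 56.5 FPKM in the labelled double knockout libraries against 73.7 and 66.2 FPKM in controls, so that labelled double knockout 2 was the lowest library (log2 fold change -0.15 ± 0.18, SE; limma, adjusted p = 0.641). The ratio of Fos to Jun, both per length in FPKM, was 1.28 and 3.05 in the labelled double knockout libraries against 2.66 and 2.12 in controls, and that of Fos to Junb 0.45 and 2.44 against 1.21 and 0.949. Summed over Fos, Fosb, Fosl1 and Fosl2, the Fos family held 65.2 and 168 FPKM in the labelled double knockout libraries against 140 and 129 FPKM in controls. The Jun family (Jun, Junb and Jund) held 176 and 182 FPKM against 169 and 157 FPKM. Between the labelled double knockout libraries the Fos family sum differed and the Jun family sum was nearly level.

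Atf3 (chromosome 1, 192994176 to 193007212), a stress-induced member of the ATF family that can repress transcription, had 12.8 and 23.5 FPKM in the labelled double knockout libraries against 11.5 and 15.5 FPKM in controls. Labelled double knockout 2 stood highest, and labelled double knockout 1 lay between the controls (log2 fold change 0.36 ± 0.32, SE; limma, adjusted p = 0.520). Leaving out labelled double knockout 2 gave -0.05. Of the other basic leucine zipper genes (15 listed, 12 tested, 3 under the filter), limma called 0, beside 9.57% of all genes tested. At an unadjusted p under 0.05, 2 of the 12 were higher and 2 lower, where 13.3% of all genes were higher and 15% lower. The authors' deposited table calls 0 of the list, where it calls 13.2% of its tested rows. The most abundant gene of this list was Atf4, at 133 and 121 FPKM in the labelled double knockout libraries against 130 and 119 FPKM in controls (limma, adjusted p = 0.929).

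Egr1 (chromosome 18, 35020861 to 35024610) had 6.72 and 12.7 FPKM in the labelled double knockout libraries against 3.54 and 1.27 FPKM in controls. Both labelled double knockout libraries were above both controls, and the libraries of each group also differed, 1.90-fold between those labelled double knockout (2 over 1) and by a ratio of 0.36 between controls (2 over 1). The log2 fold change was 1.68 ± 0.44 (SE), with a 95% interval from 0.55 to 2.81, and limma did not call it (adjusted p = 0.0821). The authors' deposited table calls Egr1, at 10.1 FPKM in the knockout against 2.61 FPKM in control (q = 0.000868). In the alternatives tried here its log2 fold change stayed above 0, from 1.18 without control 2 to 2.18 without control 1, with limma adjusted p-values from 0.0777 to 0.263.

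Among the brakes, Btg2 (chromosome 1, 135971442 to 135975732) had 14.4 and 16.8 FPKM in the labelled double knockout libraries against 34.7 and 41.9 FPKM in controls. The groups did not overlap, and the libraries differed 1.16-fold within the labelled double knockout group and 1.21-fold within controls (2 over 1). The log2 fold change was -1.24 ± 0.18 (SE, limma, adjusted p = 0.0199), a ratio of mean FPKM of 0.408. Each of the 4 values rested on at least 491 reads. The authors' deposited table also calls Btg2, at 16.4 FPKM in the knockout against 39.6 FPKM in control (q = 0.00159), from the same libraries. The fall kept its direction whichever library was left out, from -1.37 to -1.11, but its call was lost in all 4 such fits, with limma adjusted p-values of 0.0737 without labelled double knockout 1, 0.0614 without labelled double knockout 2, 0.0679 without control 1 and 0.0967 without control 2.

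Dusp1 (chromosome 17, 26642536 to 26645417) had 4.64 and 6.69 FPKM in the labelled double knockout libraries against 4.75 and 4.95 FPKM in controls, with labelled double knockout 2 highest and the groups overlapping (log2 fold change 0.17 ± 0.21, SE; limma, adjusted p = 0.640). Without labelled double knockout 2 it was -0.05. Zfp36 (chromosome 7, 29161803 to 29164247), the most abundant member on average, had 78.1 and 75.8 FPKM in the labelled double knockout libraries, which lay between the control values of 102.2 and 69.5 FPKM. Its log2 fold change was -0.13 ± 0.23 (SE, limma, adjusted p = 0.753), and turned to 0.15 without control 1. With the FPKM estimated for each library alone it was 0.025, where the median of all genes was 0.17, so that Zfp36 lay at -0.14 relative to that median, against -0.15 with the normalized values. Ier2 (chromosome 8, 87185230 to 87186751), a small nuclear protein gene induced by growth factors, was the steadiest member, at 32.5 and 31.4 FPKM in the labelled double knockout libraries against 32.3 and 27.8 FPKM in controls (log2 fold change 0.09 ± 0.16, SE; limma, adjusted p = 0.746). Its 95% interval, -0.31 to 0.50, was the narrowest of the 10.

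**Figure D2:**
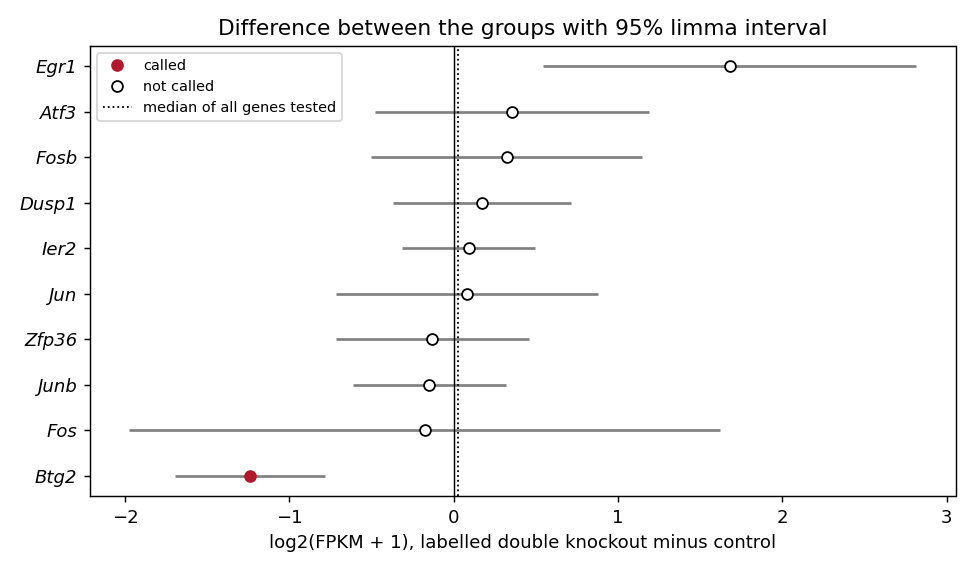
Difference of log2(FPKM + 1), labelled double knockout minus control, for each member with its 95% limma interval (n = 2 libraries each). Btg2 at -1.24 is the called member, Egr1 at 1.68 lies above 0 without a call, and the interval of Fos runs from -1.97 to 1.62.

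Averaged over the 4 libraries, levels ran in the order Zfp36 (81.4 FPKM), Fos (80.5), Junb (66.6), Jun (33.3), Ier2 (31.0), Btg2 (26.9), Atf3 (15.8), Egr1 (6.07), Dusp1 (5.26) and Fosb (1.19), all in FPKM. Genes next to each other in this order overlapped in the range of their library values, except Junb with Jun and Dusp1 with Fosb. Fos also overlapped Jun, so much of the order is not resolved. Fosb lay below the lowest library of each of the others except Egr1, which had 1.27 FPKM in control 2. Over the 10 members the median log2 fold change was 0.09, beside 0.02 over all genes tested. The groups did not overlap in 2 of 10 members (Egr1 and Btg2), where 60.7% of all genes tested had groups that did not overlap. The authors' deposited table calls 1 of the 10 higher and 1 lower, where 13.2% of its rows with a test are called, 5.9% higher and 7.31% lower.

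Between the libraries labelled double knockout, 8 of the 10 members differed by more than the median gene, and between the controls 5 did. The absolute difference between the libraries labelled double knockout had a median of 0.61 over the members and 0.19 over all genes tested, on the log2(FPKM + 1) scale. Between the controls these medians were 0.24 and 0.23. For Fos the difference (2 minus 1) was 2.096 in the labelled double knockout group, a 4.38-fold ratio, and 1.19% of all genes tested had a larger one in absolute size. Jun (0.85), Egr1 (0.83), Atf3 (0.82) and Fosb (0.78) followed, each exceeded by 5.85% to 6.84% of genes, and Dusp1 (0.45) by 17.7%. In these normalized values Zfp36 and Ier2 were nearly level, at -0.04 and -0.05, and Junb went the other way, at -0.31. Labelled double knockout 2 was the highest of the 4 libraries for 6 of the 10 members (Fos, Fosb, Jun, Egr1, Atf3 and Dusp1), as it was for 25.1% of all genes tested. Between controls, Egr1 (-0.998), Zfp36 (-0.55) and Fos (-0.50) were lower in control 2, and Atf3 (0.40) was higher.

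The counting intervals of the libraries labelled double knockout were apart for 6 of 10 members (Fos, Fosb, Jun, Junb, Egr1 and Atf3), and those of the controls also for 6 (Fos, Junb, Egr1, Atf3, Btg2 and Zfp36). For these members the spread within a group was larger than counting error in the normalized values. Counting intervals were computed for the members only, so no share over all genes stands beside these counts. They do not show whether the members differ here from other genes with as many reads. In the FPKM estimated for each library alone, Fos had 26.9 and 129 FPKM in the labelled double knockout libraries against 77.6 and 47.3 FPKM in controls. With those values Zfp36 (77.3 and 81.7 FPKM) and Ier2 (31.2 and 34.0 FPKM) were higher in labelled double knockout 2 than in 1. Junb was lower there (73.7 and 68.3 FPKM), but its lowest library was control 2, at 66.2 FPKM.

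**Figure D3:**
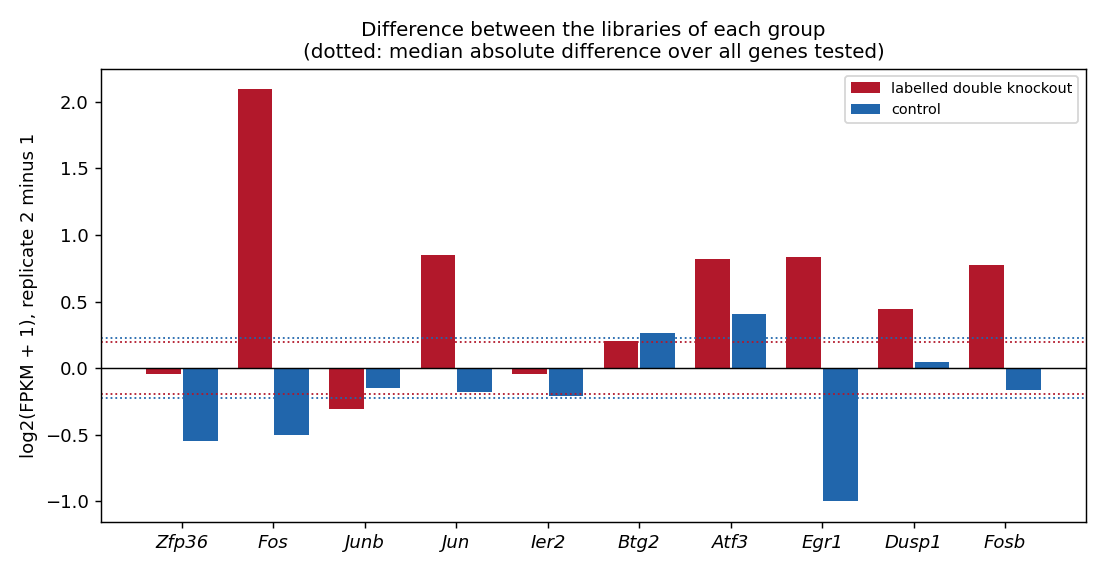
Difference of log2(FPKM + 1) between the libraries of each group, replicate 2 minus replicate 1, for each member; dotted lines mark the median absolute difference over all genes tested. Fos at 2.096 stands highest in the labelled double knockout group, and Egr1 at -0.998 lowest in controls.

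Within the labelled double knockout group, the summed markers of other cell types were higher in library 2, as the summed immediate early genes were. The ratio of library 2 to 1 was 2.84 for leukocyte, 2.25 for stromal and 3.03 for erythrocyte markers, and 1.48 for immediate early genes. It was 1.07 for epithelial markers, 1.11 for heat shock genes, 1.09 for other basic leucine zipper genes and 1.45 for feedback phosphatases and inhibitors. The remaining related lists had ratios from 0.829 to 0.955. Most of the rise of the immediate early sum, from 276 to 409 FPKM, was that of Fos (31.5 and 138 FPKM). Of the 10 members 7 were higher in library 2, while Junb was lower there and Ier2 and Zfp36 were nearly level. Between controls the marker sums did not all follow: the immediate early genes summed to 387 FPKM in control 1 and 320.3 FPKM in control 2, while leukocyte and stromal sums were higher in control 2. The summed level of the 13 leukocyte markers was 62.6 and 178 FPKM in the labelled double knockout libraries against 84.6 and 128 FPKM in controls. Of the 13, 7 were highest in labelled double knockout 2, among them Gzma (35.1 and 107 FPKM against 43.2 and 51.1 FPKM) and Gzmb (11.6 and 44.1 FPKM against 15.01 and 15.98 FPKM), granzymes of cytotoxic lymphocytes that lie within this epithelium. Another 4 were highest in control 2, among them Lyz2 (1.86 and 2.66 FPKM against 8.60 and 34.8 FPKM), Ptprc and Itgam, the last at 0.706 and 0.549 FPKM against 2.23 and 2.77 FPKM, over the filter only through the controls. Without Gzma and Gzmb the other 11 leukocyte markers summed to 15.9 and 27.5 FPKM against 26.4 and 61.2 FPKM, so that control 2 was then the highest library. Of the 8 leukocyte markers tested, limma called 1 lower (Itgam, adjusted p = 0.041) and 0 higher. Over all genes tested it called 5.8% lower and 3.77% higher. The authors' deposited table calls 2 of the list lower and 0 higher, beside 7.31% and 5.9% of its tested rows. Cd79a, a component of the B cell receptor, was at or near 0 in every library. The 4 rows of red cell markers (globins and Alas2), all higher in labelled double knockout 2 than in 1, summed to 4.96 and 15.04 FPKM against 9.80 and 6.75 FPKM. The joined row of Hbb-b1 and Hbb-bs alone had 2.13 and 9.07 FPKM against 4.98 and 2.66 FPKM. The 12 stromal and vascular markers summed to 4.19 and 9.40 FPKM against 7.76 and 8.40 FPKM. Of these, Dcn alone had 0.427 and 3.97 FPKM against 1.46 and 1.35 FPKM. Of the 12, 9, such as Acta2, Cdh5 and Pecam1, were under 1 FPKM in every library. The part of these cells in the spread of the immediate early genes was not tested.

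**Figure D4:**
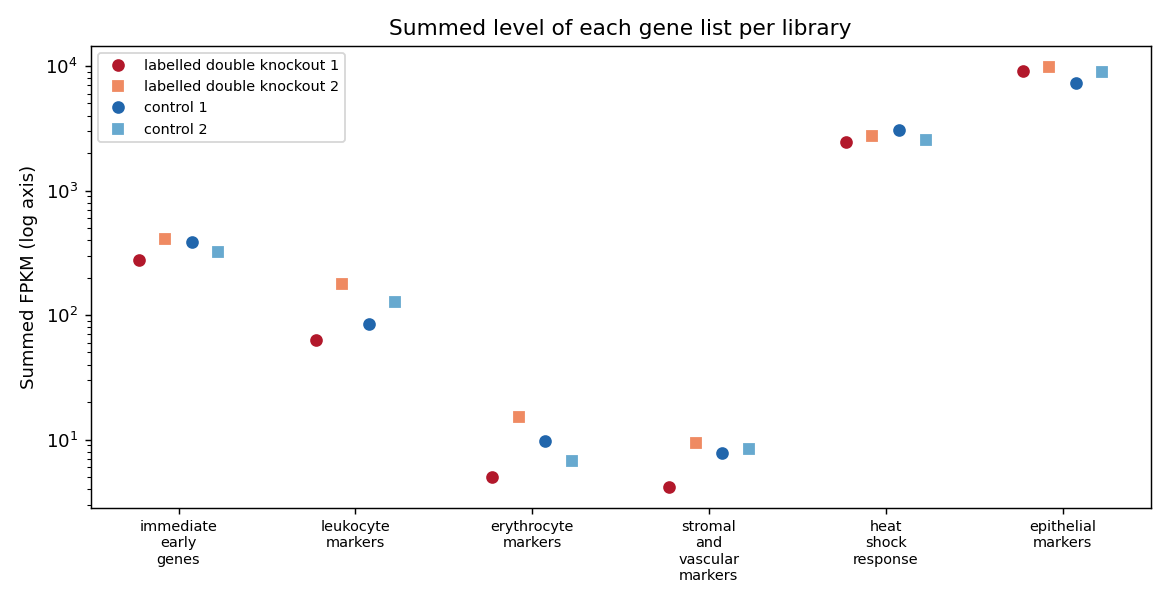
Summed FPKM of the immediate early genes, of marker lists and of heat shock genes in each library, on a log axis. Within the labelled double knockout group the immediate early genes (276 and 409 FPKM), leukocyte markers (62.6 and 178 FPKM) and erythrocyte markers (4.96 and 15.04 FPKM) are all higher in library 2. Most of the rise of the immediate early genes is that of Fos (31.5 and 138 FPKM). Heat shock genes (2451.5 and 2716.5 FPKM) and epithelial markers (9198 and 9829 FPKM) are also higher in library 2, by smaller ratios.

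Genes with the most similar profile were sought among the 7881 genes whose mean reached 5 FPKM, by the Euclidean distance of centred log2(FPKM + 1) values over the 4 libraries to the mean profile of the 10 members. The closest were Cd7, Usp1, Tapbp, the joined row of Cd97 and Mir1668, and Zdhhc18, at distances from 0.05 to 0.10, where a flat profile lay at 0.44. Cd7 had 7.86 and 11.8 FPKM in the labelled double knockout libraries against 9.78 and 7.99 FPKM in controls. A total of 120 genes lay within a distance of 0.25. The mean profile pools members that went different ways, such as Btg2, Egr1 and Fos. Distances of single members to it were not computed, so nearness to it does not mean likeness to each member.

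The other rapidly induced genes (31 listed, 22 tested, 9 under the filter) had a median log2 fold change of 0.57, beside 0.02 over all genes tested. Limma called 1 higher and 0 lower, where it called 3.77% of all genes tested higher and 5.8% lower. The gene called higher was Phlda1, a gene induced by growth factors, at 19.6 and 33.3 FPKM in the labelled double knockout libraries against 6.96 and 5.53 FPKM in controls (log2 fold change 1.88 ± 0.29, SE; limma, adjusted p = 0.0235). At an unadjusted p under 0.05 there were 8 higher and 1 lower of the 22, where 13.3% of all genes tested were higher and 15% lower. The authors' deposited table calls 8 of the list higher and 0 lower, where it calls 5.9% of its tested rows higher and 7.31% lower. These genes did not share the order of the libraries seen for Fos: of the 22 tested, 11 were highest in labelled double knockout 1, as 25% of all genes tested were, and 6 in labelled double knockout 2, near the share of all genes (25.1%).

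Upstream, the list of inducing kinases and factors (33 listed, 31 tested), which holds SRF, its ternary complex partners, CREB and the MAP kinase cascades, had 0 members called by limma. At an unadjusted p under 0.05 there were 0 higher and 6 lower of the 31, beside the 13.3% and 15% of all genes. The authors' deposited table calls 0 higher and 1 lower. The most abundant member, Mapk3 (the kinase ERK1), had 190 and 169 FPKM in the labelled double knockout libraries against 199 and 208 FPKM in controls (limma, adjusted p = 0.530). Of the feedback phosphatases and inhibitors (17 listed, 15 tested), limma called 1 higher and 1 lower, while the authors' deposited table calls 3 higher and 0 lower. Over all genes tested, limma called 3.77% higher and 5.8% lower. The deposited table calls 5.9% of its tested rows higher and 7.31% lower. Spry4, an inhibitor of receptor tyrosine kinase signalling, had 1.61 and 2.83 FPKM in the labelled double knockout libraries against 0.101 and 0.310 FPKM in controls (limma, adjusted p = 0.0464). It passed the filter only through the labelled double knockout libraries, and its call was lost with a pseudocount of 0.1 (limma, adjusted p = 0.0513). Dusp5, a nuclear phosphatase of ERK, had 4.84 and 4.57 FPKM against 8.59 and 10.1 FPKM (limma, adjusted p = 0.0436), and is not called in the authors' deposited table (q = 0.132). In this list 8 of the 15 genes tested were highest in labelled double knockout 2, where 25.1% of all genes were.

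Of the 22 messenger RNA decay partners, all tested, limma called 1 lower and 0 higher. Over all genes tested it called 5.8% lower and 3.77% higher. The gene called was Tob2, a BTG/TOB family relative of Btg2. It had 12.6 and 15.5 FPKM in the labelled double knockout libraries against 25.1 and 26.2 FPKM in controls (limma, adjusted p = 0.0478). The heat shock genes (15 listed, 14 tested) had 1 member called lower and 0 higher by limma, at a median log2 fold change of -0.15. At an unadjusted p under 0.05, 0 of the 14 were higher and 4 lower, where 13.3% of all genes were higher and 15% lower. The authors' deposited table calls 0 of the list higher and 2 lower, beside 5.9% and 7.31% of its tested rows. Hsph1, a chaperone of the HSP110 family, had 15.2 and 18.4 FPKM against 47.9 and 42.5 FPKM in controls (limma, adjusted p = 0.0150). Hspa1a and Hspa1b, the strongly inducible HSP70 genes, were low throughout, and lower in both labelled double knockout libraries than in both controls. Hspa1a had 0.203 and 1.02 FPKM against 1.70 and 2.18 FPKM, over the filter only through the controls. Hspa1b had 1.94 and 3.32 FPKM against 4.57 and 8.02 FPKM. Neither was called (limma, adjusted p = 0.144 and 0.126). Of the 14 heat shock genes tested, 7 had a log2 fold change above 0. In 3 genes, Hspd1, Hspe1 and Hsf1, both labelled double knockout libraries were above both controls, and in 7 genes both were below. Over all genes tested, groups did not overlap in 60.7%. Hspd1 had 235.9 and 321.5 FPKM against 210 and 158 FPKM.

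In the integrated stress response list (14 listed, 13 tested), whose factor ATF4 is known to induce Atf3, 1 gene rose and 1 fell. Over all genes tested, limma called 3.77% higher and 5.8% lower. Asns, the asparagine synthetase gene, had 35.5 and 30.0 FPKM in the labelled double knockout libraries against 16.3 and 13.2 FPKM in controls, and Ddit3, the gene of the stress factor CHOP, had 12.6 and 13.9 FPKM against 24.8 and 24.9 FPKM (limma, adjusted p = 0.0301 and 0.0326). The authors' deposited table calls Asns (q = 0.00291) but not Ddit3 (q = 0.488). Of the p53 targets (16 listed, 14 tested), the group to which Btg2 is also counted, 1 fell and 0 rose, beside the same shares of all genes. Sesn1, a stress-induced inhibitor of mTORC1, had 14.3 and 7.13 FPKM against 54.6 and 38.5 FPKM (limma, adjusted p = 0.0326), and the p53 target with the highest level, the cell cycle inhibitor gene Cdkn1a, had a limma adjusted p of 0.920. Without the filter on low values, 7 of these 8 list genes lost their limma call, Hsph1 being the exception. None of them was called in all 4 fits that left out 1 library: Phlda1 and Sesn1 were called only without labelled double knockout 1, Hsph1 only without labelled double knockout 2, and Asns, Ddit3, Dusp5 and Tob2 in 0 of the 4. Spry4 was called without labelled double knockout 1, lost its call without control 1 or control 2 (limma, adjusted p up to 0.140) and was under the filter without labelled double knockout 2.

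**Figure D5:**
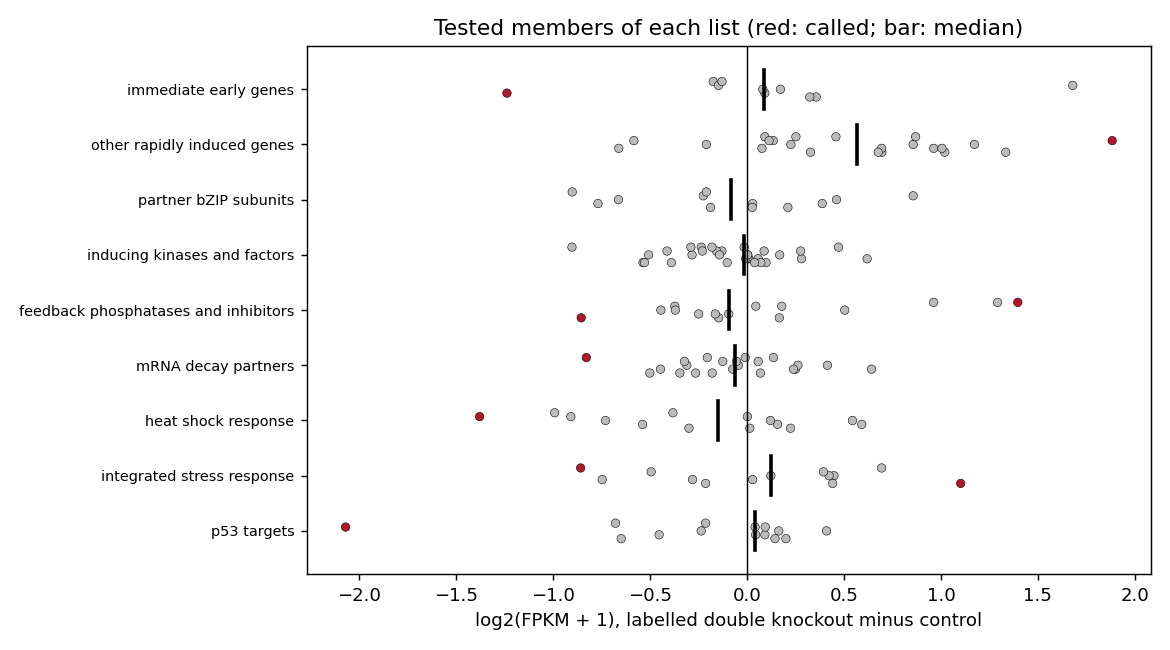
Difference of log2(FPKM + 1), labelled double knockout minus control, for each tested member of the immediate early genes and the 8 related lists; red points are called by limma and black bars are list medians. The list of other rapidly induced genes has a median of 0.57, against 0.09 for the immediate early genes.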

How the data were processed

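The 4 RNA-seq libraries were grouped by their titles, 2 to a genotype. Tools named in the submitters' processing notes, without roles, were Cufflinks (version 2.1.1), TopHat2 (version 2.0.9), Cuffdiff and Cuffnorm; the build named is mm9. The authors deposited a normalized table of 23735 rows, read here as FPKM although no unit stands in its header. They also deposited FPKM of each library alone and a table of group FPKM with p-values and q-values, per the file headers. Deposited read counts were not used here. Relative depth came from steps in low values: of 1393 genes listed between 0 and 0.5 FPKM in every library, 88.1% fitted whole reads within 0.01 read. For the members the smallest such whole numbers fitted within 0.0066 read; multiples of them would too, so the reads are minimum numbers and the 95% Poisson intervals are the widest. They cover counting error only. The libraries' summed FPKM was 643708 to 689276, and log2 values correlated at r = 0.961 within the labelled double knockout group, 0.971 within controls and 0.884 to 0.904 between groups, across genes, which are not independent replicates. Since no source used here states strand, reads of a gene and an antisense partner cannot be told apart.

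Rows sharing a symbol were summed (160 symbols) and 1034 short RNA symbols left out. Limma (version 3.58.1, R version 4.3.3) modelled log2(FPKM + 1) on genotype, two-sided, with a variance trend on mean level. It was tested on simulated data for this comparison over 10750 genes. There 80% of genes changed by 3 and 37% of those changed by 1.5 (log2) were called, and 0.0569% of unchanged genes. The simulation changed 100 genes at each size and shuffled the residual SDs over genes, so these shares need not hold for the data. With 2 libraries a group, 0.333 is the smallest p of an exact permutation test. The locus starts in the files count from 0 and 1 was added. Promoter windows are from RefSeq, GRCm38.p6, and 8 of the 10 members had an entry. The members and lists were chosen with earlier results of these data known. Named were all members, Hnf4a and Cdx2. Of each list the called genes with the largest change were named, up to 3 in each direction, or else the most abundant. The cell type markers, Hspa1a, Hspa1b, Hspd1, Hspe1, Hsf1, Cdkn1a and the genes of the AP-1 sums were added after their values were seen. Alternatives changed the pseudocount (0.1), filter, scaling, FPKM source, trend and block, and left out each library.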

Additional observations from a re-analysis of the deposited data

How the results depend on the processing

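Leaving out 1 library removed the member call: 0 members were called lower in each of the 4 fits, against 1 (Btg2) with all libraries, and over all genes 65 to 301 were called higher and 86 to 384 lower, against 410 and 631. A lone library is then assumed to vary like the other group. With no filter but a level above 0 in some library, 268 genes were called higher, and Asns, Ddit3, Dusp5, Phlda1, Sesn1, Spry4 and Tob2 lost their calls (limma, adjusted p from 0.0509 to 0.0916). Tob2 also lost its call with quantile normalization (0.0506), without the trend (0.0571) and with FPKM of each library alone (0.108), the last also ending the calls of Ddit3 (0.0771) and Dusp5 (0.0549). FPKM estimated for each library alone moved the median log2 fold change of all genes to 0.17, from which changes are read in that setting, and gave 515 higher and 478 lower. The members' median ranged from -0.05 to 0.45 over the alternatives.

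Directions turned for the members that were not called, other than Egr1 and Fosb. Egr1 ran from 1.18 to 2.18 without 1 library, and Fosb from 0.24 to 0.71 in the fits that tested it. Over the fits without 1 library, log2 fold changes ran from -0.054 to 0.767 for Atf3, -0.052 to 0.396 for Dusp1, -1.22 to 0.87 for Fos, -0.014 to 0.197 for Ier2, -0.35 to 0.507 for Jun, -0.301 to 0.0058 for Junb and -0.405 to 0.15 for Zfp36. The cause was not tested. With FPKM estimated for each library alone Zfp36 was 0.025, but -0.14 relative to the median of all genes, and Ier2 was 0.153, or -0.015 relative to it. Without labelled double knockout 2, 9 members were tested, since Fosb was under the filter.

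The labels do not say that a replicate number marks a shared batch, and the replicate differences of the groups correlated at r = -0.0048 over genes. With the replicate block 310 genes were higher and 476 lower, and Btg2 kept its call (limma, adjusted p = 0.0320). Ddit3 (0.0684), Dusp5 (0.0821), Tob2 (0.0776) and Spry4 (0.0623) lost theirs by that limma adjusted p.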

Other observations

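Several rapidly induced genes outside the 10 members had their highest level in labelled double knockout 1, the library in which Fos and Jun were lowest; they were chosen after their values were seen. Socs3, a feedback inhibitor of cytokine signalling, had 54.7 and 6.41 FPKM in the labelled double knockout libraries against 9.23 and 11.1 FPKM in controls (limma, adjusted p = 0.590). Nfkbia, the NF-kappaB inhibitor, had 111 and 75.8 FPKM against 50.3 and 39.8 FPKM (limma, adjusted p = 0.0707), and Nfkbiz 44.4 and 21.95 FPKM against 17.5 and 13.0 FPKM (limma, adjusted p = 0.156). Gadd45b had 31.6 and 16.5 FPKM against 9.68 and 9.46 FPKM (limma, adjusted p = 0.0881). None of the 4 was called.

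Among AP-1 relatives, Fosl2 had 32.6 and 27.9 FPKM in the labelled double knockout libraries against 49.9 and 65.6 FPKM in controls (limma, adjusted p = 0.0580), and Maf had 23.0 and 57.1 FPKM against 58.7 and 57.6 FPKM (limma, adjusted p = 0.371). Neither was called, and both were chosen after their values were seen. For Maf, labelled double knockout 1 was the library that stood apart.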
